A study of Mus musculus with 9 samples.

Results

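The genes of cholesterol and fatty acid synthesis were followed in the proximal colon of 9 mice. The set holds 34 genes, chosen by name for their place in the pathways, with earlier results of these data known. Of these, 31 have a probe set annotated with their symbol alone, among the 12393 genes named on the array, and 30 were bright enough to be tested. Insig1, Acat2 and Acsl3 were not analysed here. Acaca, which encodes acetyl-CoA carboxylase, read too dimly to be tested, with signals of 13.3 to 33.3 over the 9 arrays. For each gene the probe set with the highest mean signal is given, and it is called the leading one where a gene has several.

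The genotype that varied was that of Shmt1, which encodes the cytosolic serine hydroxymethyltransferase (cSHMT), an enzyme of folate metabolism. The 3 genotypes, wild-type, heterozygous and cSHMT mutant, had 3 mice each, every mouse was read on 1 Affymetrix array, and the labels name the replicates as biological ones. All 9 mice shared the C57Bl/6 background after 10 generations of backcrossing, an age of 9 weeks, and a diet lacking both folate and choline from weaning at 3 weeks. The time on this AIN-93G-based diet was 6 weeks according to the sample characteristics but 5 weeks according to the growth protocol. They do not say how the cSHMT allele was made or whether it is null. No mice on a diet with folate are among the samples, so every difference below is between genotypes on the deficient diet. The tissue was a piece of flushed colon, which holds muscle, connective tissue and fat as well as epithelium, and in such bulk RNA fewer cells of a type and less RNA per cell cannot be told apart.

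Cholesterol is built from acetyl-CoA through mevalonate, farnesyl diphosphate and squalene, which is closed into lanosterol and then trimmed and rearranged to cholesterol. Fatty acids start from the same acetyl-CoA, and the chains made by fatty acid synthase are then lengthened by elongases and given double bonds by desaturases. Both routes are transcribed under the sterol regulatory element-binding proteins (SREBPs), membrane-bound factors that are cut loose when sterols are scarce. SREBP-2, from Srebf2, acts mainly on the cholesterol route, and SREBP-1, from Srebf1, mainly on the fatty acid route. The SREBPs bind sterol regulatory elements in promoters and usually work together with the factors NF-Y and Sp1.

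Signals in the text are the deposited values on a linear scale. Fold changes are differences of normalized log2 values, after 16 had been added to each signal, which shrinks the fold changes of dim probe sets. A call required a Benjamini-Hochberg adjusted p of at most 0.05 over all 13576 probe sets tested with limma in 1 fit of the 9 arrays. The number of arrays limits the precision: the 95% interval of a member's fold change reached a median of 0.388 log2 units to either side, from 0.106 for Elovl5 to 0.667 for Mvd.

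The library labels were checked on Shmt1. On each of its 4 probe sets the 3 mutant arrays lay below the other 6. The probe set with the largest difference between genotypes read 564 to 644 in wild-type, 274 to 337 in heterozygous and 113 to 120.0 in mutant colons, and on the other 3 heterozygous and wild-type arrays overlapped. Markers of absorptive colonocytes, the cells that line the colon, were bright, and their summed signal ran from 32879 to 40044 in wild-type, 29902 to 36781 in heterozygous and 30615 to 40469 in mutant colons. Of the 12 genes on that list 11 are named, and Atp12a was below the filter on dim probe sets. The 3′/5′ ratio of the beta-actin control, which reads how far the RNA was shortened, was highest in the array numbered 1 of each genotype, at 4.45 to 5.02 against 2.52 to 3.75 in the other 6 arrays.

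In broad terms, no synthesis gene passed the adjusted threshold in any comparison. Over the 17 tested enzymes of the cholesterol route, from Hmgcs1 to Dhcr7, the heterozygous mean was the lowest of the 3 genotypes in 12, or 70.6%, and the highest in none. Among all probe sets tested the heterozygous mean was the lowest in 37.3%. The mutant mean was the highest in 11 of these 17 enzymes, or 64.7%, against 32.8% of all probe sets. In the mean level of the 17, heterozygous array 3 was the lowest and mutant array 1 the highest. Among the other arrays the genotypes were mixed. Among the 10 tested genes of fatty acid synthesis, desaturation and elongation, the heterozygous mean was the lowest in 3 and the highest in 5 (50%, against 35.9% of all probe sets), and the mutant mean was the highest in the other 5 (50%). Whether the cholesterol and the fatty acid genes differ in this was not tested. Markers of some other cells, though not of all, also read mostly lower in heterozygous than in wild-type and higher in mutant than in heterozygous colons. Of 8 tested smooth muscle markers 7 were lower in heterozygous than in wild-type colons (median -0.168). For 3 of them (37.5%, against 3.55% of all probe sets) the unadjusted p was under 0.05 in limma. In mutant against heterozygous colons 7 of the 8 were higher (median 0.138). Of 10 tested absorptive colonocyte markers 8 were lower in the first (median -0.138) and 8 higher in the second comparison (median 0.116). Of 8 tested fibroblast markers 5 were lower in the first (median -0.115) and 5 higher in the second comparison (median 0.106). In the first, 3 of them (37.5%) were lower and 1 (12.5%, against 4.46% of all probe sets) was higher at an unadjusted p under 0.05 in limma. Among all probe sets tested 49% were higher in the first comparison and 50.4% in the second. In mutant against wild-type colons these lists were not ordered like the cholesterol enzymes, of which 11 of 17 were higher (median 0.089). There 3 of 8 smooth muscle markers (median -0.012), 6 of 10 colonocyte markers (median 0.025) and 2 of 8 fibroblast markers (median -0.057) were higher. Medians in the second comparison were negative for epithelial (-0.025), macrophage (-0.216) and adipocyte markers (-0.554), and positive for the other marker lists. The part of cell makeup in the order of the cholesterol enzymes was not tested.

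**Figure D1:**
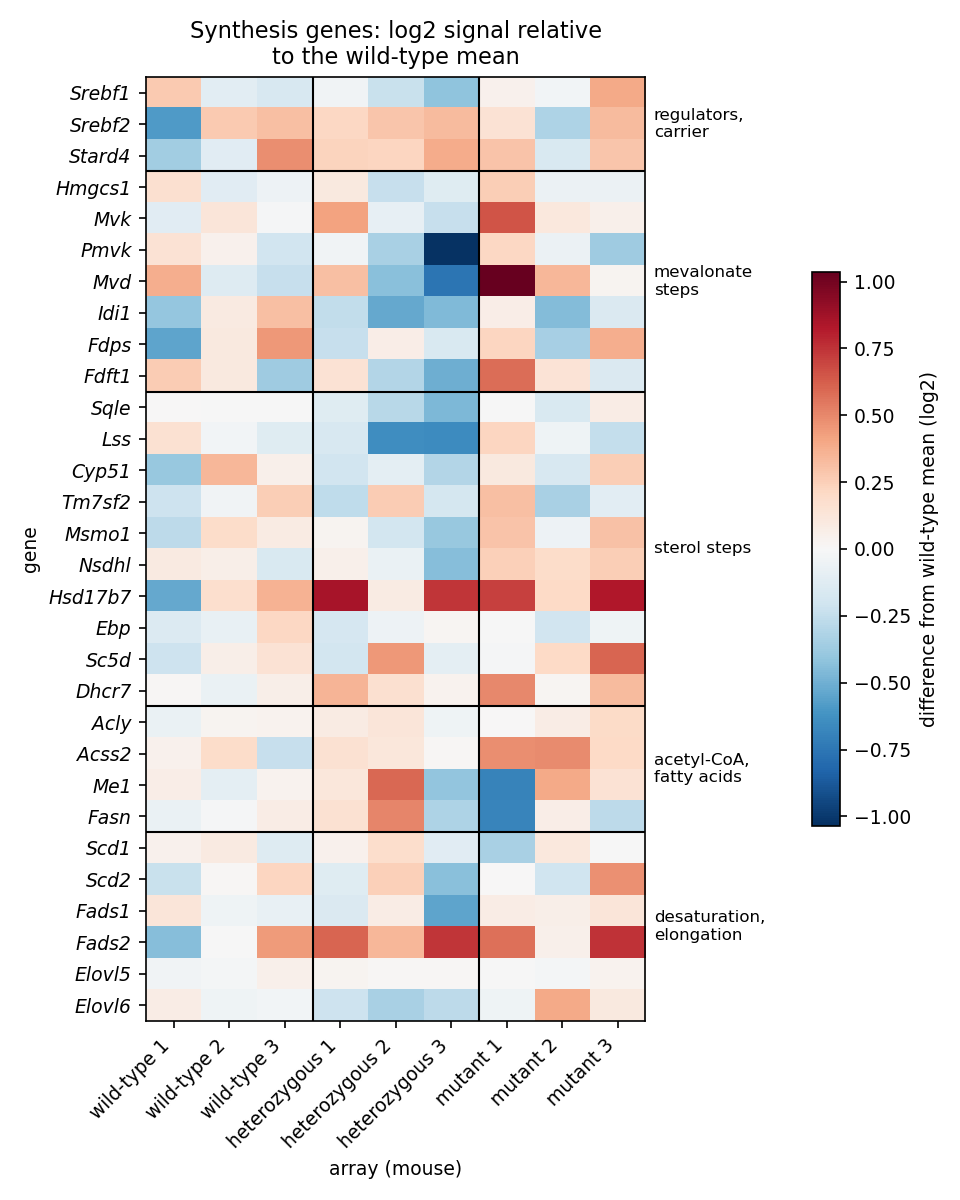
Normalized log2 signal of the 30 tested synthesis genes (rows, grouped by role) in the 9 arrays (columns), as the difference from the gene's wild-type mean on the log2 scale, with red above and blue below it. The cholesterol enzymes of heterozygous array 3 are mostly blue and those of mutant array 1 mostly red, while Fasn and Me1 are blue in mutant array 1.

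Promoters are described first, with the sequences of some of the genes described below. Whether the SREBPs act on these windows in the colon was not tested. RefSeq promoter windows of 300 bases (250 before and 50 after the transcription start, assembly GRCm38.p6) were at hand for 27 of the 34 genes, in 33 windows, and the other 7 were not analysed here. Each window was searched on both strands for the NF-Y box CCAAT, the Sp1 box GGGCGG, the sterol regulatory element core TCACCCCAC and a looser form of it, TCACNCCAC, whose matches include those of the core. The box CCAAT stood in 24 of the 33 windows (72.7%) and in 23 of the 27 genes, against 37.4% of all 32851 windows in the table. For GGGCGG the count was also 24 of 33, in 22 genes, against 35.7% of all windows. The core and its looser form stood in 1 window (3.03%), that of Hmgcs1, against 0.551% and 1.24% of all windows. A match is a description of letters and does not show a bound site.

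In the sequences below, 5′ to 3′ on the gene's strand, capitals mark the NF-Y box (which reads ATTGG where it lies on the other strand) and the sterol regulatory element core. Lss (chr10:76531355-76531654, plus strand) is shown because its 3 heterozygous arrays lay below all wild-type arrays. Mvd (chr8:122443373-122443672, minus strand) had the largest fold change between mutant and heterozygous colons. Nsdhl (chrX:72918271-72918570, plus strand) and Acss2 (chr2:155517793-155518092, plus strand) had all 3 mutant arrays above the other 6 on the normalized scale. Hmgcs1 (chr13:119690101-119690400, plus strand) holds the core, which starts at -137 from the transcription start.
Lss: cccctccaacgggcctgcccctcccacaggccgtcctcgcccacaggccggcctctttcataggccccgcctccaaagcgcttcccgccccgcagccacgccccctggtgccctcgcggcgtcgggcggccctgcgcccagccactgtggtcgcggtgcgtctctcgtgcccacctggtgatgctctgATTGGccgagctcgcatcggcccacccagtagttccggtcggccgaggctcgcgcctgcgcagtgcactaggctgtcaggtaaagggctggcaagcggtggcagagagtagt
Mvd: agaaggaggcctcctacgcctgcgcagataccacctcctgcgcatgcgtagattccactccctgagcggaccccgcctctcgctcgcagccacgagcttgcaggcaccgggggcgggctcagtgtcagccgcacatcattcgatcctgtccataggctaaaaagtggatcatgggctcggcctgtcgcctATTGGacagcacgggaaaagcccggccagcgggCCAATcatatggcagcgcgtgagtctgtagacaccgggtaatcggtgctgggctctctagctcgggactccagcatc
Nsdhl: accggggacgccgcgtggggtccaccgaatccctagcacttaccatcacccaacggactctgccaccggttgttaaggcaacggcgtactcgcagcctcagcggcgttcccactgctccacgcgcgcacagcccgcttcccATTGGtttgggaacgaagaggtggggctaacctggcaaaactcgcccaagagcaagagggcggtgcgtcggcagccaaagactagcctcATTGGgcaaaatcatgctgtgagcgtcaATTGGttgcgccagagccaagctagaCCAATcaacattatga
Acss2: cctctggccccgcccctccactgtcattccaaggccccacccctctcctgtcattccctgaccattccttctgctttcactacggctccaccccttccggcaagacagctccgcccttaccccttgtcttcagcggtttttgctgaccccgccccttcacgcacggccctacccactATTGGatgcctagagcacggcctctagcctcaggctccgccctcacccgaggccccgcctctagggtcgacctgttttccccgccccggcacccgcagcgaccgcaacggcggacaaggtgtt
Hmgcs1: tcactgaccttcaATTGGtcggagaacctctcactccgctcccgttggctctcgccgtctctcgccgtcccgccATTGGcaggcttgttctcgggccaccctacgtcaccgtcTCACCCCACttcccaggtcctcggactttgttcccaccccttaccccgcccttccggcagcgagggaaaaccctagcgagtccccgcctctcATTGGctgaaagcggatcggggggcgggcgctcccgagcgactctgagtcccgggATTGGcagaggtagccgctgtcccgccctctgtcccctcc
CCAAT stands 4 times in the windows of Nsdhl and Hmgcs1, 2 times in that of Mvd and 1 time in those of Lss and Acss2. The window of Elovl6, the elongase described below, held none of the 4 motifs.

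Among the regulators, Srebf1, which encodes SREBP-1, read 1620.4, 1250.2 and 1216 in the wild-type, 1292, 1163 and 1029 in the heterozygous and 1372, 1321 and 1739.8 in the mutant arrays. All 3 mutant arrays lay above all 3 heterozygous ones, and the wild-type arrays overlapped both. The log2 fold change of Srebf1 in mutant against heterozygous colons was 0.36 (SE 0.153, limma's unadjusted p = 0.0369, adjusted p = 0.654). Without mutant array 3 it was 0.237. It was -0.23 in heterozygous (-0.09 without wild-type array 1) and 0.14 in mutant against wild-type. The transcripts of SREBP-1a and SREBP-1c were not told apart here. Srebf2, the gene of SREBP-2, read 450.2, 920.2 and 959 in wild-type, 838, 929.6 and 972 in heterozygous and 787, 602 and 980.0 in mutant colons. Wild-type array 1 was the lowest of the 9, the heterozygous arrays lay close together, and the genotypes overlapped. Srebf2 had a log2 fold change of 0.28 in heterozygous against wild-type (95% interval -0.23 to 0.78) and -0.014 without wild-type array 1. In mutant against wild-type it was 0.054, and -0.236 without that array.

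Stard4 encodes a carrier that moves cholesterol between membranes. Its signals were 603, 792 and 1203 in wild-type, 964, 1015 and 1132 in heterozygous and 999, 768 and 1072 in mutant arrays, and again wild-type array 1 was the lowest. Stard4 had a log2 fold change of 0.28 in heterozygous (95% interval -0.15 to 0.72) and 0.14 in mutant against wild-type, which without wild-type array 1 became 0.101 and -0.038. The other Stard4 probe set gave -0.056 in heterozygous and -0.038 in mutant against wild-type, so the sign was not shared.

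Of the mevalonate steps, 7 enzymes were tested, and in mutant against heterozygous colons all 7 had a positive log2 fold change, with a median of 0.24. In heterozygous against wild-type 6 of the 7 were negative, with a median of -0.222. In mutant against wild-type 5 of the 7 were positive and the median was 0.089. Over all probe sets tested the 3 medians were 0.00129, -0.00441 and 0.00364. Both comparisons with the heterozygous mice share those 3 arrays, so an array that is low there moves both.

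Mvd encodes mevalonate diphosphate decarboxylase, which makes isopentenyl diphosphate. It read 420.0, 333 and 312 in wild-type, 409, 265 and 216 in heterozygous and 689.8, 455 and 386 in mutant arrays. The array numbered 1 was the highest within each genotype, and heterozygous array 1 overlapped the mutant range. The log2 fold change in mutant against heterozygous colons was 0.76 (SE 0.303, limma's unadjusted p = 0.0288, adjusted p = 0.649), a 1.69-fold ratio and the largest of the 30 genes in this comparison. It was 0.475 without mutant array 1. The other Mvd probe set was dimmer, at 75.6, 107.8 and 91.5 in wild-type, 64.3, 65.7 and 52.2 in heterozygous and 131.5, 88.5 and 107.7 in mutant colons. There the 3 heterozygous arrays lay below all others, and the log2 fold change was 0.74 against heterozygous colons, so the 2 probe sets gave nearly the same ratio.

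Pmvk, the phosphomevalonate kinase one step earlier, read 1109, 1092 and 934 in wild-type, 989.9, 834 and 530.1 in heterozygous and 1184, 999 and 845 in mutant arrays. Heterozygous array 3 was the lowest of the 9, and the genotypes overlapped. Its log2 fold change in heterozygous against wild-type was -0.46 (95% interval -0.97 to 0.042), and -0.187 without heterozygous array 3. Idi1 encodes the isomerase that turns isopentenyl into dimethylallyl diphosphate. It read 785, 1196 and 1386 in wild-type, 899.9, 783 and 837 in heterozygous and 1131, 819 and 1041 in mutant colons, and wild-type array 1 fell among the heterozygous values. Between heterozygous and wild-type colons Idi1 had a log2 fold change of -0.41 (limma's unadjusted p = 0.0472, adjusted p = 0.615), and -0.26 without wild-type array 3. Its other probe set gave -0.0077 in the same comparison, so such a value was read on 1 of the 2 probe sets.

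For the leading probe sets of the remaining mevalonate enzymes every interval included 0 in all 3 comparisons. Hmgcs1, the synthase that makes hydroxymethylglutaryl-CoA, had log2 fold changes of -0.087 in heterozygous and 0.046 in mutant colons against wild-type. It was read by 4 probe sets, and all 4 were positive in mutant against heterozygous colons, from 0.116 to 0.212. Mvk, the mevalonate kinase, had 0.27 in mutant and 0.033 in heterozygous colons against wild-type. Fdps, which makes farnesyl diphosphate, spread from 194 to 480 within the wild-type arrays alone, and its mutant against heterozygous log2 fold change was 0.20 (95% interval -0.35 to 0.74). Fdft1, the squalene synthase and the first enzyme given over to sterols, had 0.41 in the same comparison (95% interval -0.061 to 0.89). Its other probe set read 901, 1045 and 978 in wild-type, 871, 829 and 800.5 in heterozygous and 1122, 1022 and 1012 in mutant colons, with all heterozygous arrays below the others. It gave 0.34 in mutant against heterozygous (95% interval 0.097 to 0.58, limma's unadjusted p = 0.0104).

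Of the 10 sterol steps, 9 had a positive log2 fold change in mutant against heterozygous colons, with a median of 0.237, and Ebp stood at -0.012. In heterozygous against wild-type 7 of 10 were negative, with a median of -0.109. Between mutant and wild-type colons 6 of 10 were positive, with a median of 0.123.

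Lss encodes lanosterol synthase, which closes oxidosqualene into the sterol rings. Its signals were 755, 730.0 and 690.1 in wild-type, 611, 471 and 479 in heterozygous and 806, 714 and 647 in mutant colons. All heterozygous arrays lay below all wild-type arrays and below all mutant arrays in deposited signal, while the mutant arrays overlapped the wild-type ones. After normalization heterozygous and mutant arrays overlapped. Lss had a log2 fold change of -0.49 in heterozygous against wild-type (SE 0.168, limma's unadjusted p = 0.0142, adjusted p = 0.584), 0.46 in mutant against heterozygous and -0.023 in mutant against wild-type. The gene has 3 tested probe sets, and all 3 were negative in the first comparison, from -0.486 to -0.113, and positive in the second, from 0.424 to 0.536. Sqle encodes squalene epoxidase, which supplies the substrate of lanosterol synthase. It read 565, 624 and 638 in wild-type, 522, 508 and 461 in heterozygous and 566, 557 and 682 in mutant arrays, and here too all heterozygous arrays lay below all others in deposited signal. For Sqle the heterozygous against wild-type log2 fold change was -0.29 (limma's unadjusted p = 0.0359, adjusted p = 0.601). After normalization heterozygous array 1 lay above mutant array 2 for Sqle (9.164 and 9.132 in log2). In genotype means these neighbouring steps shared the order in which heterozygous colons read lowest, as was so for 37.3% of all probe sets.

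Msmo1 and Nsdhl act in turn to remove the methyl groups at carbon 4 of the sterol. Msmo1 read 1023, 1494 and 1387 in wild-type, 1325, 1165 and 1019 in heterozygous and 1611, 1274 and 1614 in mutant colons, and its genotypes overlapped. Its log2 fold change in mutant against heterozygous colons was 0.37 (limma's unadjusted p = 0.0369, adjusted p = 0.654). Nsdhl, the sterol dehydrogenase, read 882, 928 and 812 in wild-type, 877, 849.6 and 662 in heterozygous and 1003, 1005 and 1078 in mutant colons. All 3 mutant arrays lay above the other 6, and heterozygous array 3 was the lowest. Nsdhl had a log2 fold change of 0.38 against heterozygous (SE 0.137, limma's unadjusted p = 0.0176, adjusted p = 0.637) and 0.23 against wild-type colons (95% interval -0.069 to 0.53). The first was 0.238 without heterozygous array 3.

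Hsd17b7 encodes the ketoreductase that follows Nsdhl in the same demethylation. It was dim, at 68.5, 148 and 172 in wild-type, 217, 135 and 229.9 in heterozygous and 186, 143 and 249.5 in mutant arrays. Wild-type array 1 was the lowest and the other 8 arrays overlapped. The log2 fold changes were 0.58 in mutant (95% interval -0.016 to 1.18) and 0.56 in heterozygous against wild-type. Without wild-type array 1 they were 0.313 and 0.292. Dhcr7 makes cholesterol in the last step of one branch of the route. It read 2386, 2122 and 2299.7 in wild-type, 3044, 2513 and 2271 in heterozygous and 3494, 2293 and 2678 in mutant colons, with mutant array 1 the highest and the genotypes overlapping. In mutant against wild-type the log2 fold change of Dhcr7 was 0.28 (SE 0.118, limma's unadjusted p = 0.0369, adjusted p = 0.998), and 0.171 without mutant array 1.

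For the other sterol enzymes every interval included 0 in all 3 comparisons. Cyp51, the lanosterol demethylase, had 0.26 in mutant against heterozygous colons, and Sc5d, a sterol desaturase, had 0.21. Tm7sf2, a sterol reductase, had 0.018 in that comparison, and Ebp, the sterol isomerase, had -0.069 and -0.081 against wild-type in heterozygous and mutant colons.

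The mean log2 level over the 17 cholesterol enzymes was also read array by array. It was 9.56, 9.7 and 9.7 in wild-type, 9.69, 9.52 and 9.36 in heterozygous and 9.97, 9.62 and 9.77 in mutant colons. Heterozygous array 3 was the lowest and mutant array 1 the highest, and the other 7 arrays lay between 9.52 and 9.77 with the genotypes mixed. Heterozygous array 3 was the lowest of the 9 arrays in 8 of the 17 enzymes (47.1%, against 12.5% of all probe sets tested). Mutant array 1 was the highest in 8 of the 17 (47.1%, against 11.3%). The median log2 fold change of the 17 in mutant against heterozygous colons was 0.24, with 16 positive. It was 0.175 without heterozygous array 3, 0.217 without mutant array 1, 0.376 without mutant array 2, and 0.092 with 12 positive without both heterozygous array 3 and mutant array 1. The last of these settings was chosen after the data were seen. Mutant array 1 also had the lowest summed signal of the adipocyte markers, at 7162. Its sum of absorptive colonocyte markers was 40469 in deposited signal. This sum was highest in the array numbered 1 of each genotype, at 40044 in wild-type and 36781 in heterozygous colons. The part of cell makeup in the level of mutant array 1 was not tested. In heterozygous against wild-type the median was -0.149, and -0.079 without heterozygous array 3. Against wild-type the mutant median was 0.089. It ran from 0.019 without mutant array 1 to 0.235 without wild-type array 2.

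The array number moved with some of the same genes. The array numbered 1, with the highest beta-actin ratio, was the highest within all 3 genotypes for Hmgcs1, Pmvk, Mvd, Fdft1 and Lss, that is, for 5 of the 30 tested genes (16.7%, against 9.09% of all probe sets). It was the lowest within all 3 for Sc5d, which is 1 of 30 (3.33%, against 10.3%). Without the 3 arrays numbered 1 the median of the 17 cholesterol enzymes was 0.228 in mutant against heterozygous, -0.26 in heterozygous against wild-type and -0.011 in mutant against wild-type. The median mutant difference from wild-type was thus about 0 among the arrays with the lower ratio. The part of RNA length in the values of single genes was not tested.

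**Figure D2:**
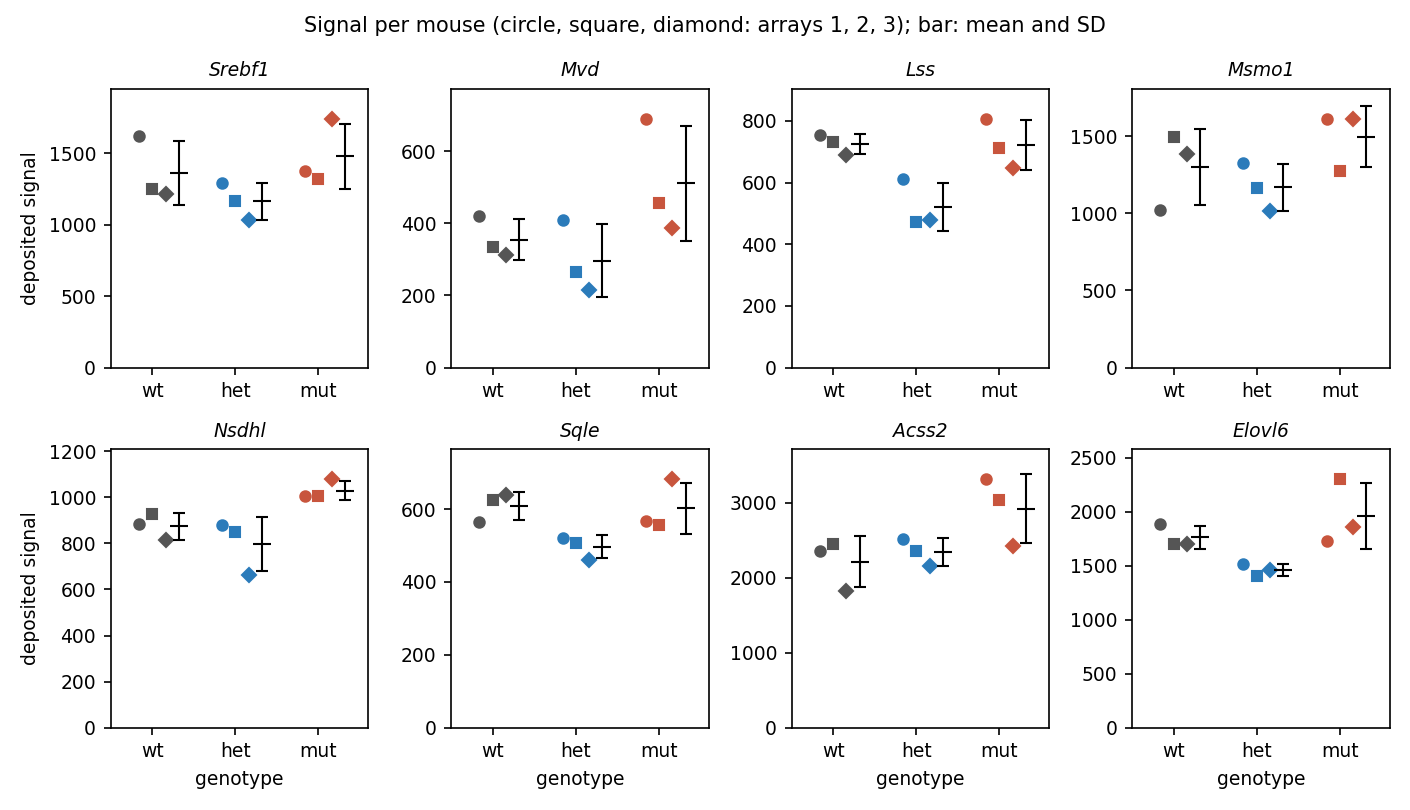
Deposited signal of 8 genes (vertical axes, from 0) in each mouse by genotype, with the bar showing mean and SD of 3 arrays and the marker shape giving the array number. Lss, Sqle and Elovl6 have all heterozygous arrays below the others, and Nsdhl has all mutant arrays above them.

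The 4 tested genes that make acetyl-CoA and fatty acids had median log2 fold changes of 0.023 in mutant against wild-type, 0.099 in heterozygous against wild-type and -0.055 in mutant against heterozygous. Each changed sign with 1 array left out. The first ran from -0.085 without mutant array 2 to 0.203 without mutant array 1, the second from -0.031 without heterozygous array 2 to 0.237 without heterozygous array 3, and the third from -0.21 without heterozygous array 3 to 0.127 without mutant array 1. Acss2, which makes cytosolic acetyl-CoA from acetate, read 2361, 2454 and 1822 in wild-type, 2520.4, 2350.4 and 2157 in heterozygous and 3314, 3031 and 2422 in mutant colons. In deposited signal mutant array 3 overlapped the other genotypes, and after normalization the 3 mutant arrays lay above the other 6. Acss2 had a log2 fold change of 0.39 against wild-type (SE 0.115, limma's unadjusted p = 0.00564, adjusted p = 0.998) and 0.29 against heterozygous colons. Its other probe set gave 0.191 and 0.271. Acss2 had the smallest unadjusted p of the 30 genes in mutant against wild-type.

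Fasn, the fatty acid synthase itself, read 1210.4, 1312 and 1395 in wild-type, 1472, 1873 and 1075 in heterozygous and 771, 1393 and 1127 in mutant arrays. Mutant array 1 was the lowest and heterozygous array 2 the highest of the 9. Fasn had a log2 fold change of -0.29 in mutant against wild-type (95% interval -0.76 to 0.17) and 0.11 in heterozygous against wild-type colons, the latter -0.082 without heterozygous array 2. Me1, the malic enzyme that supplies NADPH for the synthase, had the same lowest and highest arrays, at 699.6 and 1842, and a log2 fold change of -0.048 in mutant against wild-type. Acly, which makes acetyl-CoA from citrate, had log2 fold changes of 0.038 to 0.094 in the 3 comparisons, with a standard error of 0.0646.

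Fat tissue attached to the colon makes fatty acids and expresses Fasn and Me1, so adipocyte markers were read beside them. Of 13 markers 11 are named and 9 were tested, none of the named ones was at 0, and Aqp7 and Lep were below the filter. Their summed signal was 20345, 16289.9 and 13588 in wild-type, 14274, 17687 and 15172 in heterozygous and 7162, 14103 and 13451 in mutant colons. Mutant array 1, the lowest in Fasn and Me1, was also the lowest in this sum, while mutant arrays 2 and 3 lay in or close to the range of the other genotypes. All 9 tested markers were lower in mutant than in wild-type colons, with a median log2 fold change of -0.587, and 4 (44.4%, against 1.92% of all probe sets) had an unadjusted p under 0.05 in limma. Thrsp, a lipogenic gene chosen for mention after its values were seen, read 409 in mutant array 1 and between 1196 and 1849 in the other 8. The part of adipocyte RNA in the Fasn and Me1 values was not tested.

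**Figure D3:**
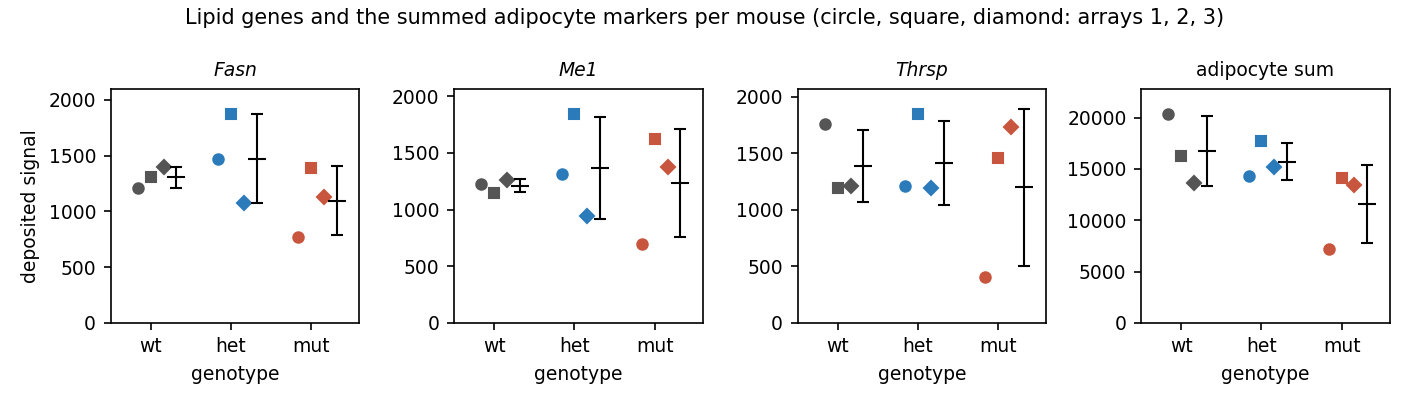
Deposited signal of Fasn, Me1 and Thrsp and the summed signal of the named adipocyte markers (vertical axes, from 0) in each mouse by genotype, with bars for mean and SD of 3 arrays and the marker shape for the array number. Mutant array 1 is the lowest point in all 4 panels.

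Desaturation and elongation genes were tested for 6 of 7 members, with median log2 fold changes of 0.089 in mutant against wild-type, -0.043 in heterozygous against wild-type and 0.091 in mutant against heterozygous. Elovl6 encodes the elongase that lengthens palmitate. It read 1885, 1705 and 1703 in wild-type, 1518, 1408 and 1462 in heterozygous and 1727, 2303 and 1857 in mutant colons, and all heterozygous arrays lay below the other 6. The log2 fold change of Elovl6 in mutant against heterozygous colons was 0.43 (SE 0.109, limma's unadjusted p = 0.00243, adjusted p = 0.467), the smallest p of any synthesis gene in any comparison. In heterozygous against wild-type it was -0.28 (unadjusted p = 0.0285 in limma). The other Elovl6 probe set, which was dimmer, gave 0.059 and 0.027, so a difference of that size was read on the leading probe set alone.

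Fads2, the delta-6 desaturase of polyunsaturated fatty acids, read 473, 726 and 995 in wild-type, 1062, 918 and 1213 in heterozygous and 1020.5, 745 and 1228 in mutant arrays. Wild-type array 1 was the lowest, and the genotypes overlapped. The log2 fold change of Fads2 in heterozygous against wild-type was 0.56 (SE 0.229, limma's unadjusted p = 0.0316, adjusted p = 0.598), and in mutant against wild-type it was 0.46. Without wild-type array 1 they were 0.338 and 0.232. Its other probe set gave 0.159 and 0.16.

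The other desaturases and the other elongase had intervals that included 0 in every comparison. Scd1 and Scd2, the stearoyl-CoA desaturases that make oleate, had -0.077 and 0.091 in mutant against wild-type. Fads1, the delta-5 desaturase, read 439 to 442 in the wild-type arrays and 313 to 477 in the heterozygous ones, with a log2 fold change of -0.20. Elovl5, an elongase of polyunsaturated chains, was the steadiest gene of the set, with log2 fold changes of 0.017 and 0.00383 in heterozygous and mutant against wild-type and a standard error of 0.0484.

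**Figure D4:**
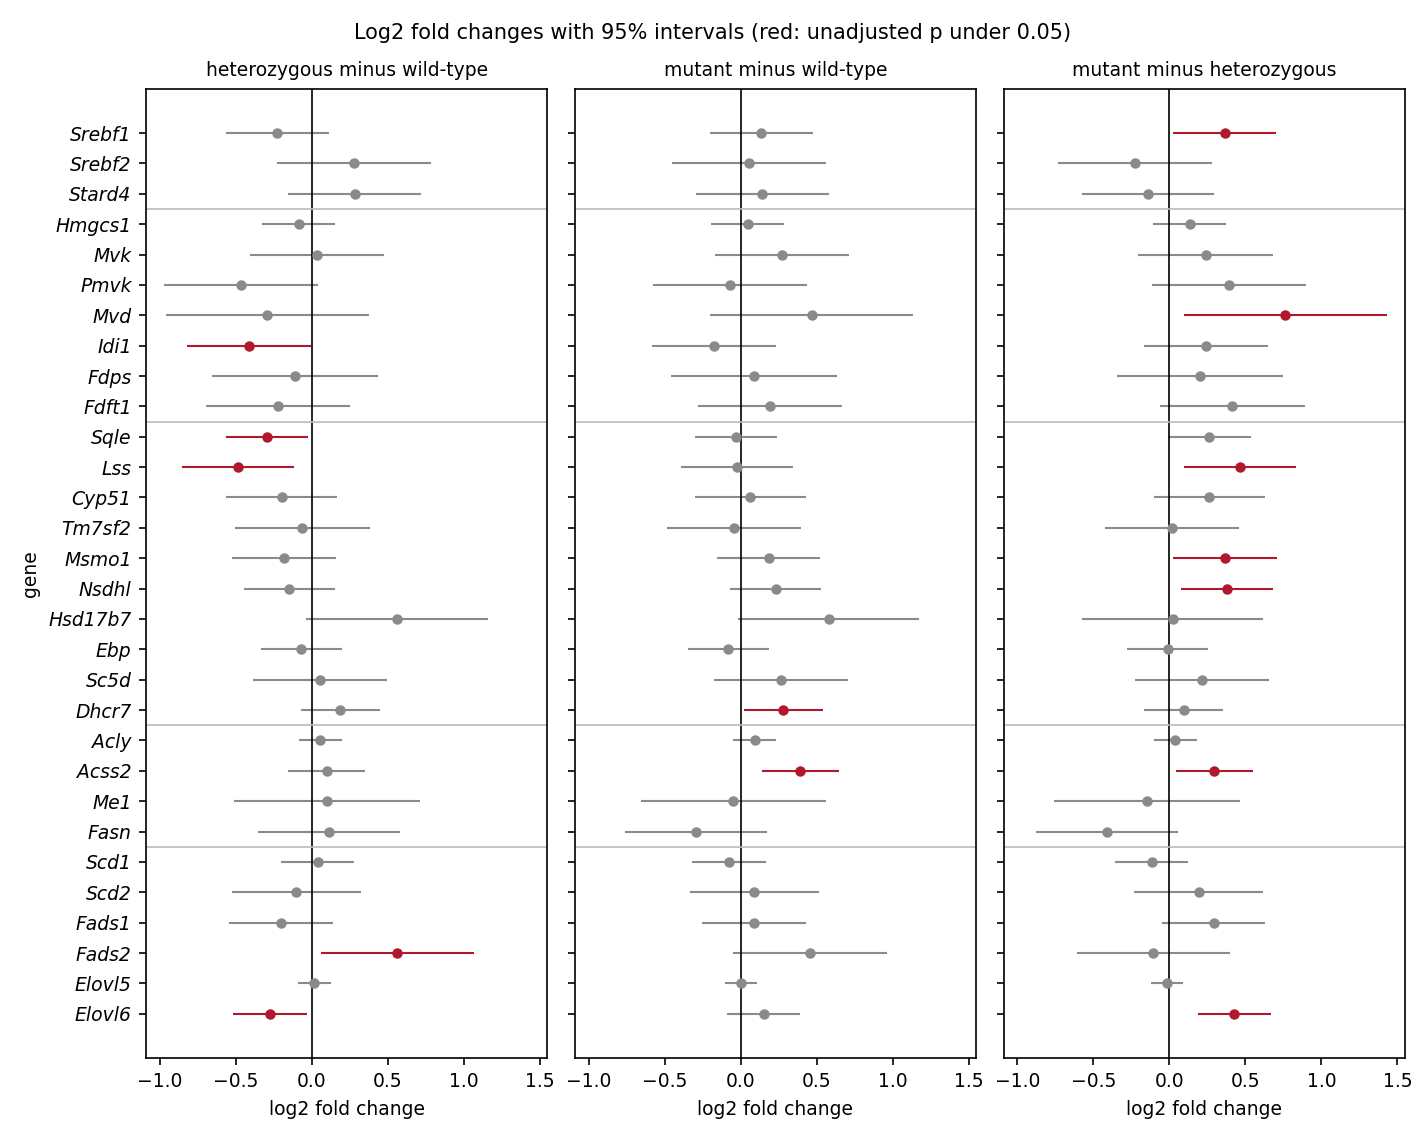
Log2 fold changes (horizontal axes) of the 30 tested genes, grouped by role, in the 3 comparisons, with bars for the 95% interval in limma and red for an unadjusted p under 0.05. In mutant minus heterozygous 16 of the 17 cholesterol enzymes lie right of 0, and the 7 red genes are all positive.

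Read gene by gene, mutant against wild-type asked what the mutant genotype does and heterozygous against wild-type what the heterozygous one does. None of the 30 genes was called in mutant against wild-type (0.0221% of all probe sets were), and the smallest adjusted p in limma was 0.998. At an unadjusted p under 0.05, Dhcr7 and Acss2 were higher (2 of 30, or 6.67%, against 1.92% of all probe sets) and none was lower (against 1.92%). The 2 became 5 without wild-type array 3, 4 without mutant array 2 and 1 without wild-type array 2 or mutant array 3. They were also 5 with array weights or with the beta-actin ratio as a covariate. The count fell to 1 with the deposited values left without normalization, with centring on each array's median, or with eBayes without trend. Under median centring the gene left was Fads2, and neither Dhcr7 nor Acss2 passed. In the other settings with this lower count from processing it was Acss2, so which genes passed depended on the normalization. In heterozygous against wild-type none was called either, as was 0% of all probe sets, and the smallest adjusted p in limma was 0.584. At the unadjusted p, Fads2 was higher (1 of 30, or 3.33%, against 4.46%), and Idi1, Sqle, Lss and Elovl6 were lower (4 of 30, or 13.3%, against 3.55%). The 5 became 0 without heterozygous array 3, 3 without heterozygous array 2, and 2 without wild-type array 1 or 2. With array weights they were 11, of which 3 were higher.

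Mutant against heterozygous is not a comparison that the design text names. None of the 30 genes was called in it (0.0221% of all probe sets were), and the smallest adjusted p in limma was 0.467. At an unadjusted p under 0.05, Srebf1, Mvd, Lss, Msmo1, Nsdhl, Acss2 and Elovl6 were higher (7 of 30, or 23.3%, against 4.07% of all probe sets) and none was lower (against 3.49%). The 7 became 2, of which 1 was higher, without heterozygous array 3, 3 without mutant array 1, 4 without heterozygous array 2 and 11 without heterozygous array 1. The count therefore rested in good part on single arrays. The 95% interval lay within 1 log2 unit of 0 on both sides for 28, 28 and 29 of the 30 genes in mutant against wild-type, heterozygous against wild-type and mutant against heterozygous.

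Where a gene had several tested probe sets, they did not always point one way. Of 16 such genes, the sign was shared by all probe sets in 11 for mutant against wild-type, in 10 for heterozygous against wild-type and in 11 for mutant against heterozygous.

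Genes next to these pathways were read from lists by name. On the sterol side, which holds uptake, transport and branch enzymes, 12 of 23 listed genes were tested, with medians of 0.025 in mutant against wild-type, -0.072 in heterozygous against wild-type and 0.104 in mutant against heterozygous. On the lipid side 20 of 27 were tested, with medians of -0.021, -0.019 and -0.021. None was called. At an unadjusted p under 0.05 in limma there were 3 sterol-side genes and no lipid-side gene. In each direction of a comparison this was at most 1 of the 12, or 8.33%, against the shares of 1.92% to 4.46% of all probe sets given above. Ggps1, which turns farnesyl into geranylgeranyl diphosphate, read 490.3, 607 and 656 in wild-type, 722, 842 and 897 in heterozygous and 569, 728 and 669 in mutant colons. All heterozygous arrays lay above the wild-type ones, and above the mutant ones only after normalization, with a log2 fold change of 0.47 against wild-type (adjusted p = 0.483 in limma). Tmem97, a sterol-regulated membrane protein, read 693, 754 and 765 in wild-type, 589, 610.0 and 525 in heterozygous and 681, 653 and 719 in mutant colons, with all heterozygous arrays below the others. Its log2 fold change in heterozygous against wild-type was -0.37 (adjusted p = 0.555 in limma). Abcg5, a subunit of the transporter that exports sterols, was dim, at 64.6, 61.7 and 88.9 in wild-type, 51.7, 72.9 and 82.8 in heterozygous and 78.6, 111 and 138 in mutant colons. After normalization all mutant arrays lay above the others. The log2 fold changes of Abcg5 in mutant colons were 0.51 against wild-type and 0.60 against heterozygous (adjusted p = 0.998 and 0.524 in limma).

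Markers of cycling cells, which need new membrane, were read beside the cholesterol enzymes. In mutant against heterozygous colons all 11 tested were positive, with a median of 0.217. Of these 2 (18.2%, against 4.07% of all probe sets) had an unadjusted p under 0.05 in limma. In mutant against wild-type 10 of the 11 were positive, with a median of 0.156. Here 3 (27.3%, against 1.92%) had such a p. In heterozygous against wild-type 4 were positive, with a median of -0.046, and none had such a p. The medians of the 17 cholesterol enzymes against wild-type were 0.089 in mutant and -0.149 in heterozygous colons. The summed signal of the cycling markers was 5504.8 in heterozygous array 3, the lowest of the 9, and 7093 and 7598 in mutant arrays 1 and 3, the highest. The part of cell division in the values of the cholesterol enzymes was not tested.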

How the data were processed

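Total RNA of the proximal colon (about 50 ng per sample, amplified with the NuGEN Ovation kit, per the labels) was hybridised to 9 arrays. The deposited values are intensities, 1 linear signal per probe set and array. The software was GCOS, per the submitters' processing notes; its version is not given in the sources used here, nor is the scaling. From the deposited signals 64 control probe sets of 22690 were left out. The rest were read as log2(signal + 16) and quantile normalized, and probe sets whose mean lay under the 40th percentile (a signal of 75.45) were dropped, which left 13576 of 22626. Names came from the platform annotation, and 691 probe sets with several symbols and 1555 with none were not named. limma 3.58.1 in R 4.3.3 fitted all 9 arrays (lmFit, eBayes with trend) for 3 comparisons, with Benjamini-Hochberg adjustment. The test was also run on simulated data. Figures were drawn with matplotlib 3.10.9 (Python 3.11.15).

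By the rule for named genes, values in every array are given for the SREBP genes, for genes with an unadjusted p under 0.05, for genes whose genotypes did not overlap with a log2 fold change of at least 0.5, and for the largest fold change of each role group and comparison. The members, lists and comparisons were chosen with earlier results of these data known. Promoter sequences are RefSeq's. Alternatives covered normalization, pseudocount, filter, variance model, array weights, samples in the fit, beta-actin ratio, replicate number, probe set per gene and left-out arrays. The main fit did not pair mice by replicate number. Correlations of deviations ran from -0.059 to 0.463 for same-numbered arrays, and 5 of 9 were above 0.1. For arrays of unlike number they ran from -0.507 to 0.275, and 4 of 18 were above 0.1. Whether the number marks a shared batch was not tested.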

Additional observations from a re-analysis of the deposited data

How the results depend on the processing

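None of the 30 synthesis genes was called under any of the alternatives that gave calls. Of the fold changes of named genes, 690 kept their direction and 8 reversed, which concerned Srebf2, Stard4 and Fasn, none of them called. In mutant against wild-type Srebf2 (0.054) read -0.249 with array weights, -0.236 without wild-type array 1, -0.085 without mutant array 3 and -0.279 without the 3 arrays numbered 1. Stard4 read -0.038 without wild-type array 1 and -0.108 without the 3 arrays numbered 1. With 1 array left out at a time the 2 genes ran up to 0.241 and 0.385. In heterozygous against wild-type Srebf2 read -0.014 without wild-type array 1 and Fasn -0.082 without heterozygous array 2 (0.335 at most with another array left out). Over all probe sets, 3 were called in mutant against wild-type. This became 9 with array weights, 5 with the beta-actin ratio as a covariate and 9 without the 3 arrays numbered 1. The 0 called in heterozygous against wild-type became 134 with array weights and 1 without heterozygous array 3 and mutant array 1, against 605 higher and 482 lower at an unadjusted p under 0.05 in limma. The 3 called in mutant against heterozygous became 5 with only these genotypes in the fit. Leaving out 1 array at a time gave 2 to 4, 0 to 3 and 1 to 7 calls. The cause of these differences was not tested.

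In the labels same-numbered replicates share only the number, but the beta-actin ratio was highest in the array numbered 1 of each genotype. With the replicate number as a block the calls were 5 in mutant against wild-type and 8 in mutant against heterozygous, and the synthesis genes with an unadjusted p under 0.05 were 6, 8 and 11 in mutant against wild-type, heterozygous against wild-type and mutant against heterozygous. The regulators' median of 0.277 in heterozygous against wild-type was 0.055 with array weights, 0.016 without the 3 arrays numbered 1 and -0.014 to 0.436 with 1 array left out. In mutant against wild-type it became -0.108 and that of the sterol steps -0.023 without the 3 arrays numbered 1. With 1 array left out the median of desaturation and elongation ran from -0.14 to 0.04 in heterozygous against wild-type and from -0.012 to 0.201 in mutant against heterozygous. Signal over background limits Acaca and the dimmer probe sets of Mvd and Fads2.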
